A study of Mus musculus with 12 samples.

Results

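Nes, Vim, Fabp7, Fam107a, Jam2, Sox2, Hes1, Hes5 and Id3 are genes of radial glia and neural progenitors. Their mRNAs were followed in the somas and neurites fractions of mouse hippocampal neuron cultures, with and without inhibition of the proteasome. These 9 genes were taken by name from the 27179 genes of the count tables, as a list of progenitor genes of which several had shown a different MG132 response in somas and in neurites in the same libraries. The list was thus chosen by the difference between the MG132 responses of the 2 fractions, which is given here as a description with no test. Hes5 had too few counts to be tested, and the other 8 genes passed the filter on low counts.

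All libraries came from primary hippocampal neurons of newborn mice, kept in culture for 17 or 18 days in Transwell inserts, cups whose porous membrane lets neurites pass to the lower face while somas remain on top. MG132, which blocks the proteasome and so raises the load of misfolded protein, was given at 10 μM for 7 h, and Ctrl neurons received its solvent DMSO. Somas and neurites were collected separately, which gave 4 groups of 3 libraries each, Ctrl somas, MG132 somas, Ctrl neurites and MG132 neurites. The labels name no transgene or mutation, and the strain is C57BL/6 in the labels, while the study's methods name C57BL/6 and FVB mice without saying which served here. PolyA-selected RNA was sequenced in all 12 libraries. The libraries of a group are numbered 1 to 3. The sources used here do not say whether they came from separate animals, so p-values measure only the spread between these libraries, which may be technical.

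Counts summed to between 4247610 and 22166347 per library. Levels are given as CPM, a gene's share of a library's counts scaled to a common total. TMM scaling was applied first, which corrects for differences in RNA composition. The same gene, without a symbol here, led every library with 12.4 to 33.4% of its counts. Mitochondrial genes held 9.78 to 17.1% of counts in somas and 13.5 to 29.2% in neurites. TMM factors were 1.18 to 1.44 in somas and 0.567 to 0.999 in neurites, so values between fractions depend on this scaling. The labelled cell type was checked against markers. All 12 neuronal markers were counted in every group and summed to between 890 and 1850 CPM per library, while the 12 astrocyte markers summed to between 2785 and 27356 CPM, so astrocyte mRNAs were counted beside neuronal ones in both fractions. Markers of dividing cells summed to between 31.4 and 307 CPM, and those of neuroblasts and intermediate progenitors to between 75.3 and 204 CPM, of which Sox11 had up to 2433 counts in a library and Eomes at most 3. In bulk RNA, fewer cells of a type and less RNA per cell cannot be told apart, and neither can progenitors and astrocytes that express the same genes. Since both fractions hold RNA of other cells, somas and neurites below name fractions, not parts of neurons alone.

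Radial glia are the stem cells of the developing brain, and their long processes guide newborn neurons. Nestin and vimentin build the intermediate filaments of these processes, Fabp7 carries fatty acids, Sox2 keeps cells in the progenitor state, and Hes1, Hes5 and Id3 hold back neuronal differentiation downstream of Notch and BMP signals. Fam107a and Jam2 are less studied, and Fam107a is known as a marker of outer radial glia and of astrocytes. Most of these genes remain active in astrocytes, in the stem cells of the adult hippocampus and in reactive glia.

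The promoters of Nes, Fabp7 and Fam107a are shown because these genes had the widest gaps between neurites and somas, and because Fabp7 is a known target of Notch. Each sequence holds the 250 bases before the transcription start in RefSeq (GRCm38.p6), 5′ to 3′ on the strand of the gene, and capitals mark TGGGAA or its reverse complement, the core letters bound by RBPJ, the DNA-binding partner of Notch. The Fam107a window lies on the minus strand at chr14:8317608-8317857, the Fabp7 window on the plus strand at chr10:57784673-57784922 and the Nes window on the plus strand at chr3:87970843-87971092.
Fam107a: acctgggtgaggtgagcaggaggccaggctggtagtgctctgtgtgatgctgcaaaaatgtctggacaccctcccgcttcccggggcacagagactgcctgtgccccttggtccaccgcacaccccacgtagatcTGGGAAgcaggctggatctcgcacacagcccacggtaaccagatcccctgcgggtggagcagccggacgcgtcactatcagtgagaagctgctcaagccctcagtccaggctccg
Fabp7: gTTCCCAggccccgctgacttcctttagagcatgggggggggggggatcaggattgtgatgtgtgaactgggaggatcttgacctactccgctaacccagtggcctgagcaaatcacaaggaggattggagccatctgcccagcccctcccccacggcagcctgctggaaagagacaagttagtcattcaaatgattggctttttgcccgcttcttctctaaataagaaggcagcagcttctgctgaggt
Nes: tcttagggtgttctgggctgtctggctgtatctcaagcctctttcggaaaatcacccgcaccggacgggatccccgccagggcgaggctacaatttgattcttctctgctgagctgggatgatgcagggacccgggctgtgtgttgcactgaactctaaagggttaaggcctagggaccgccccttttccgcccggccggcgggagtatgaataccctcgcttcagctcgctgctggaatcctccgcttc
The letters TGGGAA were found once at the first of the 3 listed starts of Fam107a, beginning at position -115, and once on the reverse strand in Fabp7, at position -249, counted from the start. None were found in Nes. Of the 7 genes with a promoter entry, Hes5 held 2 matches, at -226 and -82, and Vim, Sox2 and Id3 held none. The same letters stood in 25.5% of 27025 promoters of 300 bases, 250 before and 50 after the start, searched on both strands as the windows of the 7 genes were. The heat shock element GAANNTTC, the letters bound by heat shock factors, stood in 7.95% of all promoters and in none of the 7, and the N box CACNAG, bound by Hes proteins, stood in 42.6% of all promoters and in those of Vim and Fabp7. No matches of different motifs overlapped in these genes. A match is a run of letters and no evidence of binding.

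Averaged over Ctrl and MG132, 5 of the 8 tested genes were higher in neurites than in somas, namely Nes, Fabp7, Fam107a, Jam2 and Vim, and none was lower. Across all 14185 tested genes, 12.2% were called higher in neurites and 6.51% lower, which is 1733 and 924 genes, and without TMM factors the split was 350 and 4455. Averaged over the 2 fractions, Fam107a, Jam2 and Sox2 were lower after MG132, which makes 3 of 8 against 13.6% of all tested genes called lower, and none was higher, against 16.4% called higher. A call required an adjusted p under 0.01 in the quasi-likelihood test of edgeR, adjusted by Benjamini and Hochberg's method over all tested genes. At an unadjusted p under 0.05, Id3 also passed as lower in neurites and as higher after MG132, and Vim as lower after MG132, and DESeq2 called the same 5 and the same 3 genes. With equal group sizes, these averages are orthogonal contrasts to the difference between the 2 responses that chose the genes, that is, uncorrelated if all libraries spread equally. They rest on the same libraries and the same estimate of spread, so full independence is not given. For Jam2 and Vim the MG132 somas libraries lay below all others, and that group enters both averages and the difference. Jam2 averaged 29.5 CPM there against 95.4, 100.4 and 87.9 CPM in Ctrl somas, Ctrl neurites and MG132 neurites. Vim averaged 557 CPM against 972, 1271 and 1210 CPM in the same order. The calls of Jam2 and Vim are thus no separate result from the difference. The genes were also chosen with earlier results of these data known.

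**Figure D1:**
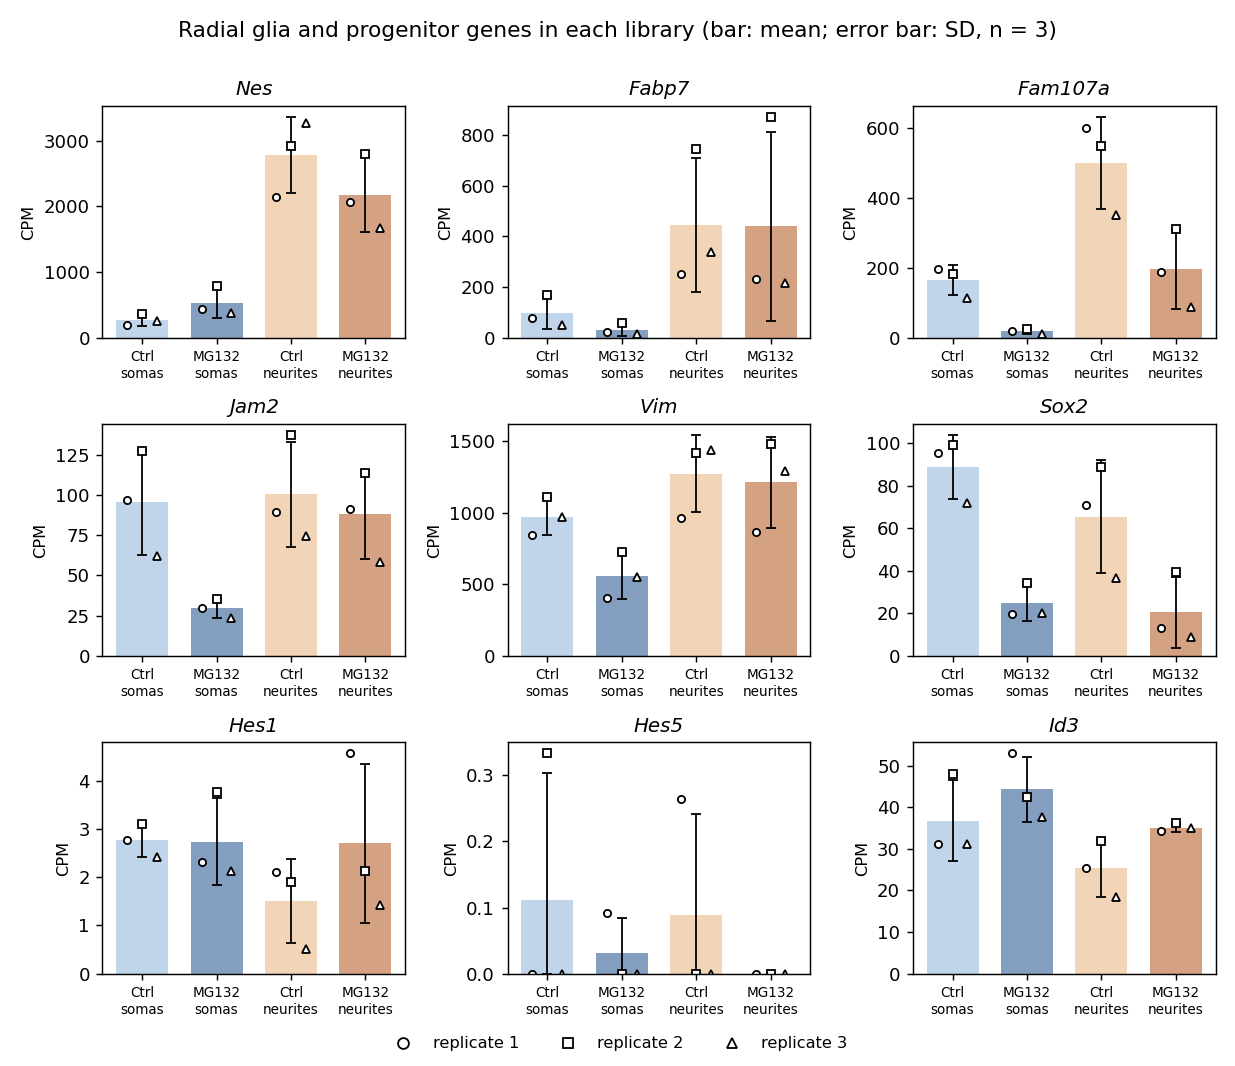
Level of each of the 9 genes in every library, in CPM on a linear axis from 0, for Ctrl somas, MG132 somas, Ctrl neurites and MG132 neurites, with bars for group means, error bars for the SD (n = 3) and 1 symbol per replicate number. Nes, Fabp7 and Fam107a stand highest in the neurites groups, Sox2 is lower in both MG132 groups, and Hes5 is at or near 0 throughout.

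Nes encodes nestin, the intermediate filament protein that defines neural progenitors (GRCm38 chr3:87971093-87980451). In somas its level was 188, 360 and 246.4 CPM in the Ctrl libraries and 436, 789 and 369 CPM in the MG132 libraries. In neurites it was 2134, 2925 and 3265 CPM in Ctrl and 2065, 2803 and 1666 CPM after MG132. Every neurites library was above every somas library, the MG132 somas libraries lay just above the Ctrl somas libraries without overlap, and the 2 neurites groups overlapped. Nes was 6.56-fold higher in neurites over both treatments (log2 2.71 ± 0.23, standard error, edgeR adjusted p = 6.15e-07), in 6 of 6 numbered pairs. Here and below, 6 pairs are 3 replicate numbers seen in 2 treatments or in 2 fractions, so they are not 6 independent units. Its MG132 response averaged over the fractions was 0.33 ± 0.22 (edgeR adjusted p = 0.244), an average of a positive value in somas and a negative value in neurites.

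Vim encodes vimentin, the filament protein that assembles with nestin and also fills astrocytes (GRCm38 chr2:13574311-13582826). In somas it stood at 843, 1106 and 967 CPM in Ctrl and at 400, 722 and 550 CPM after MG132. The neurites libraries held 962, 1417 and 1435 CPM in Ctrl and 861, 1481 and 1289 CPM after MG132. The MG132 somas libraries were all below the others, whereas the remaining 3 groups overlapped. Over both treatments Vim was 1.69-fold higher in neurites (log2 0.75 ± 0.18, edgeR adjusted p = 0.00523), again in 6 of 6 pairs. The averaged MG132 response was -0.44 ± 0.18 (edgeR adjusted p = 0.0606), and with the replicate number as a block it was -0.46 (edgeR adjusted p = 3.68e-04), past the threshold.

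Fabp7 encodes the brain fatty acid binding protein, abundant in radial glia and in young astrocytes (GRCm38 chr10:57784923-57788450). Its level was 77.8, 170 and 49.3 CPM in Ctrl somas and 20.5, 59.1 and 16.0 CPM in MG132 somas. Ctrl neurites held 250, 744 and 340 CPM and MG132 neurites 233, 869 and 214 CPM. All neurites libraries were above all somas libraries, and library 2 was the highest of its group in each of the 4 groups. Library 2 was also the highest of each group in the summed markers of dividing cells, at 191, 87.4, 307 and 169 CPM in Ctrl somas, MG132 somas, Ctrl neurites and MG132 neurites. In the same order of groups, the same held for astrocyte markers, at 6722, 3604, 27356 and 20546 CPM. It also held for markers of neuroblasts and intermediate progenitors, at 117, 157, 164 and 204 CPM. The part of these cell types in the Fabp7 level was not tested. Fabp7 was 7.97-fold higher in neurites over both treatments (log2 3.0 ± 0.46, edgeR adjusted p = 1.85e-04), the widest gap among the 8 genes. Its averaged MG132 response was -0.84 ± 0.44 (edgeR adjusted p = 0.132) and did not pass. When the replicate number entered as a block it was -0.95 (edgeR adjusted p = 1.30e-06), so the call depended on whether libraries were paired by number. With this block 5 of the 8 genes were called lower after MG132, against 19.5% of all tested genes.

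Fam107a encodes an actin-associated protein of radial glia and astrocytes (GRCm38 chr14:8296270-8317607). In somas its level was 196, 183 and 115 CPM in Ctrl and 20.4, 25.2 and 10.4 CPM after MG132. In neurites it was 600, 547 and 351 CPM in Ctrl and 189, 312 and 86.6 CPM after MG132. In each fraction the MG132 libraries were all below the Ctrl libraries. Averaged over the fractions Fam107a was 4.78-fold lower after MG132 (log2 -2.26 ± 0.29, edgeR adjusted p = 2.28e-05), and it was lower in 6 of 6 pairs. It was also 5.70-fold higher in neurites over both treatments (log2 2.51 ± 0.30, edgeR adjusted p = 1.31e-05).

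Jam2 encodes a junctional adhesion molecule at the cell surface (GRCm38 chr16:84774123-84826380). In somas it was at 96.7, 127 and 62.2 CPM in Ctrl and at 29.8, 35.1 and 23.6 CPM after MG132. Neurites held 89.4, 137 and 74.7 CPM in Ctrl and 91.5, 114 and 58.4 CPM after MG132. The MG132 somas libraries were the lowest of all, and the other 3 groups overlapped. The averaged MG132 response was 1.93-fold lower (log2 -0.95 ± 0.21, edgeR adjusted p = 0.00228), lower in 5 of 6 pairs. This call was lost when Ctrl somas library 2 (edgeR adjusted p = 0.0117) or MG132 somas library 3 (edgeR adjusted p = 0.0104) was left out.

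Over both treatments Jam2 was 1.78-fold higher in neurites (log2 0.83 ± 0.21, edgeR adjusted p = 0.00802), in 5 of 6 pairs. The neurites calls of Jam2 and Vim were the least secure. That of Jam2 remained in 5 of 12 fits that each left out 1 library and that of Vim in 4 of 12, with edgeR adjusted p up to 0.0244 and 0.0151. Leaving out library 1 or 3 of Ctrl somas, 1 or 3 of MG132 somas, 2 of Ctrl neurites or 2 of MG132 neurites lost both calls, leaving out MG132 neurites library 1 lost that of Jam2, and leaving out library 3 of Ctrl neurites or of MG132 neurites lost that of Vim. Without TMM factors the values were 0.15 for Jam2 and 0.07 for Vim (edgeR adjusted p = 0.666 and 0.825), while the median of all genes moved from -0.07 to -0.78. Relative to that median the values were 0.93 and 0.86.

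Sox2 encodes the transcription factor that maintains neural stem cells (GRCm38 chr3:34649995-34652461), and it lies inside Sox2ot on the same strand without sharing an exon with it. Ctrl somas held 95.3, 99.1 and 71.7 CPM and MG132 somas 19.7, 34.3 and 19.9 CPM. Ctrl neurites held 70.6, 88.8 and 36.7 CPM and MG132 neurites 13.0, 39.4 and 8.70 CPM. MG132 somas libraries were all below the libraries of both Ctrl groups, and in neurites the highest MG132 library just passed the lowest Ctrl library. Averaged over the fractions Sox2 was 3.36-fold lower after MG132 (log2 -1.75 ± 0.32, edgeR adjusted p = 4.82e-04), in 6 of 6 pairs. Between neurites and somas it differed by -0.32 ± 0.31 (edgeR adjusted p = 0.477).

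Id3 encodes an inhibitor of basic helix-loop-helix factors that BMP signals induce (GRCm38 chr4:136143822-136145392). Its level was 31.1, 47.9 and 31.1 CPM in Ctrl somas and 52.9, 42.4 and 37.6 CPM in MG132 somas. It was 25.4, 32.0 and 18.5 CPM in Ctrl neurites and 34.2, 36.1 and 35.0 CPM in MG132 neurites. The neurites groups did not overlap, with the MG132 libraries above, and the somas groups did. The averaged MG132 response of 0.37 ± 0.17 (edgeR adjusted p = 0.0920) and the neurites to somas difference of -0.43 ± 0.17 (edgeR adjusted p = 0.0691) both missed the threshold. Without TMM factors the latter was -1.16 and passed it (edgeR adjusted p = 5.26e-04), and relative to the median of all genes it was then -0.37, as it was with TMM factors.

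Hes1 and Hes5 encode the repressors through which Notch acts in radial glia. Hes1 (GRCm38 chr16:30065357-30067796) had between 3 and 52 counts per library. These counts gave 2.76, 3.11 and 2.43 CPM in Ctrl somas and 2.31, 3.77 and 2.13 CPM in MG132 somas, against 2.12, 1.90 and 0.504 CPM in Ctrl neurites and 4.56, 2.12 and 1.42 CPM in MG132 neurites. The Ctrl neurites libraries were all below both somas groups, and the MG132 neurites libraries overlapped the other 3 groups. Its averaged MG132 response was 0.39 ± 0.48 and its neurites to somas difference -0.45 ± 0.48 (edgeR adjusted p = 0.538 and 0.523), so no difference was detectable at this depth. Hes5 (GRCm38 chr4:154960626-154962372) was counted 3 times in Ctrl somas library 2, once each in MG132 somas library 1 and Ctrl neurites library 1, and not at all in the other 9 libraries. No library passed 3 counts, which corresponds to 0.123 to 0.794 CPM across the libraries, so no fold is given. Exons of Hes5 overlap those of Gm20421 on the opposite strand, and at the default setting featureCounts ignores strand, so reads from the overlap cannot be assigned by strand. Depending on the annotation used for counting, such reads are left out or counted for Hes5, so its counts may be too low or too high. None of the 75-base windows of the longest transcript of each of the 9 genes occurred, read on the same strand, in GENCODE transcripts of another gene. Opposite strands and the rest of the genome were not searched.

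Compared per kilobase of exon, the 3 genes with the most mRNA in Ctrl somas were Vim at 205 ± 27.8 CPM per kb (SD, n = 3), Fabp7 at 79.1 ± 50.3 and Sox2 at 43.1 ± 7.22. Fam107a at 42.6 ± 11.3 and Nes at 41.3 ± 13.6 CPM per kb were within the spread of Sox2. The order in Ctrl neurites was different, with Nes at 432 ± 90.4 CPM per kb, Fabp7 at 356 ± 211, Vim at 268 ± 56.5 and Fam107a at 129 ± 33.9, while Sox2 stood at 31.8 ± 12.9. In MG132 somas Vim led with 117 ± 33.9 CPM per kb, followed by Nes at 82.8 ± 35.1, and Fam107a was at 4.82 ± 1.95. Jam2, Id3 and Hes1 were lower, at 15.8 ± 5.40, 20.5 ± 5.41 and 1.36 ± 0.166 CPM per kb in Ctrl somas. Nes thus moved from the fifth place in Ctrl somas to the first in Ctrl neurites, though its range there overlapped that of Fabp7.

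**Figure D2:**
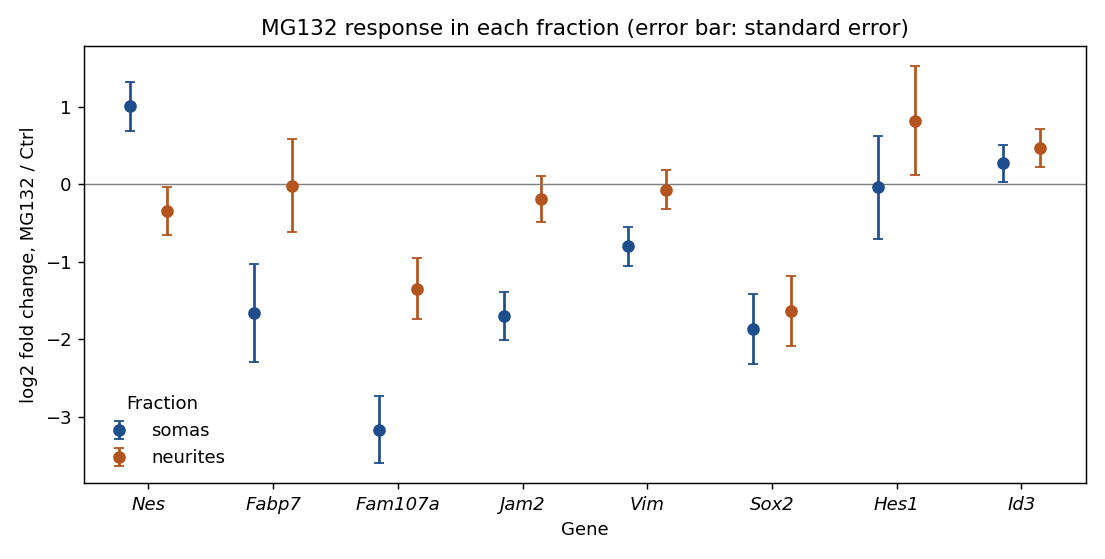
Log2 fold change of MG132 over Ctrl in somas and in neurites for the 8 tested genes, from 1 edgeR model, with standard errors as bars. Nes is above 0 in somas (1.0) and below 0 in neurites (-0.35), Fam107a, Jam2, Fabp7 and Vim are lower in somas than in neurites, and the values of Sox2 are close to each other.

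The MG132 responses of the single fractions are the terms of the difference that chose the genes, so they are described without a test. In somas the log2 fold change was 1.0 ± 0.31 for Nes, -0.80 ± 0.26 for Vim and -1.67 ± 0.63 for Fabp7. In neurites the same 3 genes gave -0.35 ± 0.31, -0.07 ± 0.25 and -0.02 ± 0.60. Nes thus had values of opposite sign in the 2 fractions, higher in somas after MG132 in 3 of 3 numbered pairs and lower in neurites in 3 of 3. In somas the values were 1.21, 1.13 and 0.58 in pairs 1, 2 and 3. In neurites they were -0.05, -0.06 and -0.97, so that pair 3 carried most of the negative value. Pair 3 there uses MG132 neurites library 3, whose date does not match its replicate number. That library also had the lowest TMM factor (0.567) and the largest share of counts in its top gene (33.4%). The median of all genes in neurites was -0.16, and pairs 1 and 2 lay above it.

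Fam107a gave -3.17 ± 0.43 in somas and -1.35 ± 0.40 in neurites, and Jam2 gave -1.703 ± 0.31 and -0.19 ± 0.30. For Fam107a all 3 pairs were lower after MG132 in both fractions. Sox2 gave similar values in both fractions, -1.87 ± 0.45 and -1.63 ± 0.45. Id3 was at 0.27 ± 0.24 in somas and 0.47 ± 0.24 in neurites, and Hes1 at -0.04 ± 0.66 and 0.82 ± 0.71.

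The response in neurites minus that in somas was 1.82 ± 0.57 for Fam107a, 1.65 ± 0.87 for Fabp7, 1.51 ± 0.42 for Jam2 and 0.73 ± 0.36 for Vim, and -1.35 ± 0.44 for Nes. It was positive in each of the 3 numbered pairs for the first 4 genes and negative in each for Nes. For Sox2, Id3 and Hes1 it was 0.23 ± 0.63, 0.20 ± 0.34 and 0.86 ± 0.97, with pairs of both signs. Across the whole table edgeR called 0 of 14185 genes for this difference, which is 0%, with 1000 genes at an unadjusted p under 0.05, and DESeq2 called 21 higher and 6 lower of the 5385 genes for which it gave an adjusted p, none of them among the 9. With the replicate number as a block it called 21 genes, or 0.148%, of which 3 were Fabp7, Fam107a and Jam2, and nothing is read from this since the contrast chose them. Without MG132 neurites library 2, the deepest of all, the difference was 0.67 for Fabp7 and -0.74 for Sox2.

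The same numbers read in the other direction give the gap between fractions in each condition, again as a description. In Ctrl cultures the log2 ratio of neurites to somas was 3.39 ± 0.34 for Nes, 2.17 ± 0.63 for Fabp7 and 1.60 ± 0.40 for Fam107a. It was 0.08 ± 0.30 for Jam2 and 0.39 ± 0.25 for Vim. In MG132 cultures it was 2.04 ± 0.32, 3.82 ± 0.68 and 3.42 ± 0.44 for the first 3 genes, and 1.59 ± 0.31 and 1.12 ± 0.26 for Jam2 and Vim. The gap of Jam2 thus lay in MG132 cultures, where the somas level was 29.5 ± 5.75 CPM against 87.9 ± 27.9 CPM in neurites (SD, n = 3). In Ctrl cultures the levels were 95.4 ± 32.6 and 100.4 ± 32.6 CPM.

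**Figure D3:**
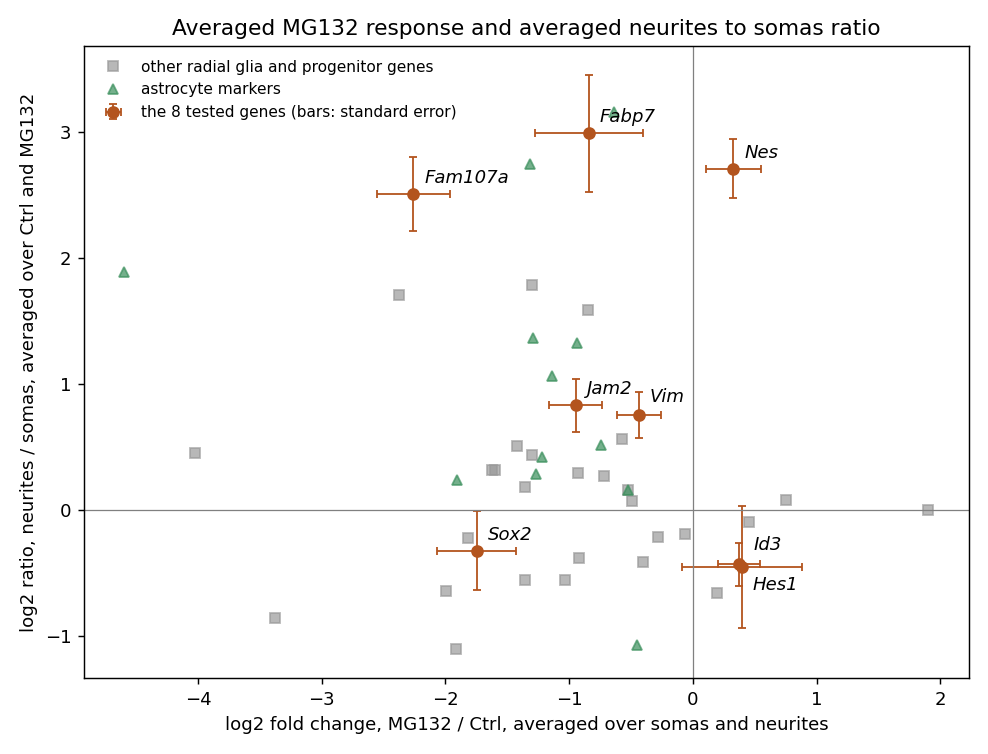
Averaged MG132 response (x axis, log2 fold change) against the averaged ratio of neurites to somas (y axis, log2) for the 8 tested genes with standard errors, for the other radial glia and progenitor genes and for the astrocyte markers. Fabp7, Nes and Fam107a lie at the top between 2.51 and 3.0 on the y axis, most other progenitor genes lie near 0 on that axis, and 18 of the 28 tested other progenitor genes were called lower after MG132.

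Other genes of radial glia and neural progenitors were read from a list of 30, of which 28 could be tested. After MG132, averaged over fractions, 18 were called lower and 1 higher, with a median log2 fold change of -0.98 against -0.12 over all tested genes. The transcription factors Sox9 and Pax6 gave -1.36 ± 0.17 and -2.38 ± 0.31 (edgeR adjusted p = 1.69e-05 and 2.47e-05), and Hopx, a marker of outer radial glia, gave -1.42 ± 0.26 (edgeR adjusted p = 5.46e-04). Sox3, a close relative of Sox2, was at 0.923 and 4.22 CPM in Ctrl somas and Ctrl neurites and at 0.164 and 0.0743 CPM in the MG132 groups, on few counts (edgeR adjusted p = 0.00315). The exception was Tnc, an extracellular matrix protein of the stem cell niche, which rose from 34.7 ± 6.33 to 137 ± 43.0 CPM in somas and from 36.5 ± 13.8 to 129 ± 51.4 CPM in neurites (log2 1.90 ± 0.24, edgeR adjusted p = 1.70e-05).

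Between neurites and somas, only Pax6, Emx2 and Ddah1 of these 28 were called higher and none lower in edgeR (1 lower in DESeq2, and 1 in edgeR without library 2 of Ctrl neurites or of MG132 neurites), with a median of 0.08 against -0.07 over all tested genes. Emx2, a homeobox gene of cortical progenitors, led with 47.7 ± 6.58 CPM in Ctrl neurites against 12.3 ± 1.93 CPM in Ctrl somas (averaged log2 1.79 ± 0.19, edgeR adjusted p = 5.20e-06). Without TMM factors 10 of the 28 were called lower, beside the shift of the median of all genes given above.

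Of 35 genes of the Notch pathway 32 were tested, and 5 were lower and 3 higher after MG132, with a median of -0.36. These counts are near or under the shares over all tested genes, 13.6% lower and 16.4% higher. Lower were the receptor Notch2, the target Hey1 (log2 -1.81 ± 0.23, edgeR adjusted p = 1.91e-05), the glycosyltransferase Lfng, the gamma-secretase subunit Psenen and the ligand-like Dner. Lfng fell from 11.6 and 6.46 CPM in Ctrl somas and Ctrl neurites to 0.0547 and 0.181 CPM after MG132 (edgeR adjusted p = 9.28e-06). Among the higher genes were the ligand Jag1 (log2 1.54 ± 0.36, edgeR adjusted p = 0.00301) and the coactivator Maml1. The count of lower genes was 3 without Ctrl somas library 2 and that of higher genes 1 without MG132 neurites library 2. Between fractions, 4 Notch genes were called lower in neurites, led by Dner at 145 ± 16.0 CPM in Ctrl somas and 63.6 ± 20.6 CPM in Ctrl neurites (averaged log2 -1.16 ± 0.17, edgeR adjusted p = 8.42e-05). That count was 1 without MG132 somas library 1 or Ctrl neurites library 2, 2 without library 1 or 3 of MG132 neurites, 2 or 3 of MG132 somas or 3 of Ctrl neurites, and 18 without TMM factors.

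In the BMP and ID pathway 21 of 23 genes were tested, and 5 were higher and 5 lower after MG132, with a median of -0.14. The relatives of Id3 went separate ways. Id1 rose from 6.05 ± 2.84 to 19.1 ± 2.48 CPM in somas and from 4.17 ± 1.33 to 13.8 ± 8.42 CPM in neurites (averaged log2 1.69 ± 0.32, edgeR adjusted p = 6.44e-04). Id4 fell by 3.10 on the log2 scale (edgeR adjusted p = 1.55e-06), and Id2 gave -0.69 ± 0.21 (edgeR adjusted p = 0.0150), short of the threshold, which it passed with the replicate number as a block (edgeR adjusted p = 3.57e-04). The mediators Smad1 and Smad4, the receptor Acvr1 and Tcf12 also rose, and the ligand Bmp4, at 3.13 and 2.88 CPM in Ctrl somas and Ctrl neurites and at 0.377 and 0.209 CPM after MG132, was called lower (edgeR adjusted p = 0.00790). Between fractions 4 genes were higher in neurites and 0 lower in edgeR (1 in DESeq2), led by Smad5 at 148 ± 30.9 CPM in Ctrl neurites and 62.0 ± 12.7 CPM in Ctrl somas (averaged log2 0.90 ± 0.14, edgeR adjusted p = 1.72e-04), and without TMM factors none was higher and 5 were lower.

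Near relatives of the 9 genes numbered 22, of which 17 were tested. After MG132 6 were lower, among them Jam3, the paralogue of Jam2 (log2 -0.81 ± 0.14, edgeR adjusted p = 3.22e-04), and Synm, a filament protein that assembles with vimentin (log2 -1.07 ± 0.18, edgeR adjusted p = 2.47e-04). Higher were Id1 and Fam107b, the paralogue of Fam107a (log2 1.01 ± 0.14, edgeR adjusted p = 3.14e-05), so that Fam107a and Fam107b passed the test in opposite directions. In neurites, Fam107b (log2 0.68 ± 0.13) and Gfap were higher. The neurofilament genes Nefl, Nefm, Nefh and Ina did not pass either test, with Nefl at 0.14 ± 0.20 and Nefm at 0.83 ± 0.25 after MG132 (edgeR adjusted p = 0.604 and 0.0133), and with the replicate number as a block Nefm passed (edgeR adjusted p = 1.41e-05). The lists share genes, so their counts are not independent.

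**Figure D4:**
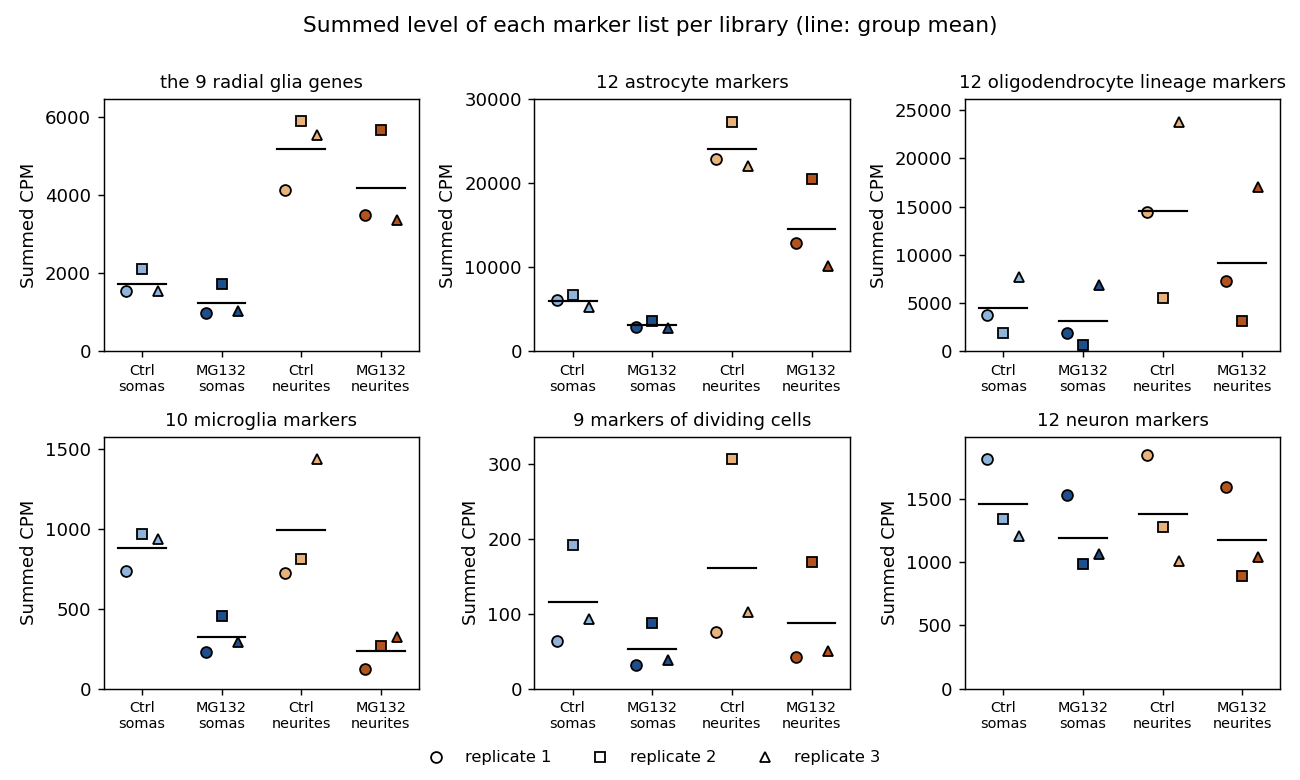
Summed CPM per library (linear axis from 0) of the 9 genes and of marker lists for astrocytes, oligodendrocyte lineage, microglia, dividing cells and neurons, in the 4 groups, with a line at each group mean. The astrocyte sum is 22038 to 27356 CPM in Ctrl neurites and 5305 to 6722 CPM in Ctrl somas, while the neuron sums of the groups overlap.

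Astrocyte markers also differed between the fractions and with MG132, as several of the 9 genes did. All 12 were tested. In somas their summed level ranged from 5305 to 6722 CPM with Ctrl and from 2785 to 3604 CPM with MG132. In neurites it ranged from 22038 to 27356 CPM with Ctrl and from 10210 to 20546 CPM with MG132. Gfap, the astrocyte filament gene, made up most of the neurites sum and was higher in neurites by 3.16 ± 0.25 on the log2 scale (edgeR adjusted p = 3.12e-07), beside 2.71 for Nes and 3.0 for Fabp7. Of the 12 markers, 5 were called higher in neurites, Gja1 was called lower, and 8 were called lower after MG132 with none higher (with the replicate number as a block, all 12 were lower and none higher). Gjb6 was at 0 in all MG132 somas libraries, which holds for no other marker of the list in any group. The part of astrocyte RNA in the levels of the 9 genes was not tested.

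Markers of several other cell types differed between the groups too. The summed markers of the oligodendrocyte lineage ranged in somas from 1856 to 7699 CPM with Ctrl and from 616 to 6891 CPM with MG132, and in neurites from 5540 to 23745 CPM and from 3112 to 17002 CPM. Those of microglia were 736 to 968 CPM and 723 to 1436 CPM in Ctrl somas and Ctrl neurites, and 230 to 455 CPM and 122 to 324 CPM in the MG132 groups. Markers of mural cells and fibroblasts summed to 232 to 333 CPM with Ctrl and 84.7 to 113 CPM with MG132 in somas, and to 74.0 to 159.8 CPM and 41.5 to 64.7 CPM in neurites. Ependymal markers summed to 170.2 to 205 CPM with Ctrl and 47.2 to 74.5 CPM with MG132 in somas, and to 80.4 to 129.6 CPM and 26.9 to 34.9 CPM in neurites. For microglia, mural cells and ependymal cells the MG132 libraries thus lay below the Ctrl libraries of the same fraction without overlap, and their part in the levels of the 9 genes was not tested. Those of neurons overlapped among all 4 groups, with 1209 to 1818 CPM in Ctrl somas and 890 to 1598 CPM in MG132 neurites. The sum over the 9 genes was 1531 to 2097 CPM with Ctrl and 982 to 1711 CPM with MG132 in somas, and 4134 to 5893 CPM with Ctrl and 3359 to 5656 CPM with MG132 in neurites, and most of it was Nes and Vim.

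For each gene, the 2 genes whose log2 CPM was most alike over the 12 libraries were looked up among the 13613 tested genes that averaged 1 CPM or more, with Pearson's r as the measure. The 12 points of each correlation share the 4 groups and the replicate numbers, so r is a description. Nes was most like Wwtr1 (r = 0.981), which encodes the transcriptional coactivator TAZ, and Bnip2 (0.979). Fabp7 was most like Cst3 (0.962), which encodes the secreted protease inhibitor cystatin C, and Aldh1a1 (0.959), and Vim was most like Sfrp1 (0.956), which encodes a secreted Wnt antagonist, and Cst3 (0.956). Fam107a was most like Farp1 (0.981) and Nwd1 (0.976), and Jam2 like Ucma (0.947) and Gpd2 (0.936).

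Sox2 was most like Gpr17 (r = 0.968) and Vcan (0.959), and both of these are known from oligodendrocyte precursors. Id3 was most like Htr2a (0.922), a serotonin receptor, and Grip1 (0.914). The values of Hes1 (Efna5 at 0.939 and Cntnap4 at 0.894) and of Hes5 (Arhgef37 at 0.837 and Setd1b at 0.817) rest on sparse counts and are no finding.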

How the data were processed

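Whole-number counts of reads per gene were deposited by the authors for each of the 12 libraries, with no normalization. Per the labels and the study's methods, reads from polyA-selected RNA were trimmed with Trimmomatic 0.38.0 and aligned to mm10 with STAR. They were counted with featureCounts 2.0.1 at default parameters and tested with DESeq2 2.11.40.7. The methods name a paired-end run and then the alignment of single-end reads, without explaining the difference. Reads with several alignments are not counted at featureCounts' defaults, which lowers near-identical genes. For the 9 genes, the windows of the longest transcripts given above showed no such copy among same-strand GENCODE transcripts of other genes. Copies on opposite strands or elsewhere in the genome were not searched for, so they were not excluded.

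The 9 genes and all gene lists were chosen with earlier results of these data known. Symbols and GRCm38 coordinates came from RefSeq and named 25275 of 27179 genes. In 66 comparisons of libraries no pair was identical. Genes were filtered with filterByExpr by group, which kept 14185, scaled with TMM factors, and fitted in R 4.3.3 with edgeR 4.0.16 (quasi-likelihood, limma 3.58.1) as 1 model of 4 group means over all 12 libraries. A call needed an adjusted p under 0.01, with no minimum fold. Standard errors are the log2 fold change divided by the root of edgeR's F statistic. The averaged contrasts are orthogonal to the difference that chose the genes. The model was tested on simulated data. DESeq2 1.42.0 was an alternative, beside other scalings, filters and thresholds, a replicate block and each library left out.

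Named were the 9 genes, the 2 genes most like each (prior count of 2), and from each list the most raised and the most lowered called gene of each averaged contrast, if its mean reached 1 CPM. The other list genes named were chosen after their values were seen, for what they encode. CPM of genes with few counts carry counting error.

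The replicate numbers were taken to pair libraries across groups, since the dates in the library names match them for 11 of 12 (MG132 neurites library 3 differs). Deviations from the group means correlated by 0.0972 to 0.248 in 18 same-numbered pairs (17 over 0.1), and by -0.0997 on average in 36 other pairs. The main fit had no term for the replicate number and took the 12 libraries as independent, which same-numbered somas and neurites are not.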

Additional observations from a re-analysis of the deposited data

Results flagged for a closer look

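Nes was marked because the sign of its MG132 response was opposite in the 2 fractions: each of the 3 numbered pairs was higher after MG132 in somas (1.21, 1.13 and 0.58 on the log2 scale) and lower in neurites (-0.05, -0.06 and -0.97). The neurites values of pairs 1 and 2 are small and lie above the median of all genes in neurites, -0.16, and pair 3 lies below it. Pair 3 in neurites uses MG132 neurites library 3, whose date does not match its replicate number and whose TMM factor was the lowest (0.567). The response in neurites minus that in somas was -1.35, and it ranged from -1.58 to -0.96 when each library was left out in turn. The difference is given as a description, with no p, since it is the contrast on which the genes were chosen. No other of the 8 tested genes had pairs of opposite sign in all 3 pairs of both fractions.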

How the results depend on the processing

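For the 3 genes called lower after MG132, the count was 3 under DESeq2, both other scalings, both other filters and an adjusted p under 0.05, and 2 when a log2 change beyond 1.7 was required. With the replicate block it was 5, with Fabp7 and Vim added, and leaving out each library gave 2 to 3. Over all genes, 1925 of 14185 were called lower after MG132 in the main fit and 2822 of 14180 under DESeq2. With the block it was 2767 of 14185, and with total counts 1632 of 14185. Equal counts of the 9 genes thus stand against unequal backgrounds. For the 5 genes higher in neurites, total counts without TMM factors gave 3 (and 1 lower, Id3), a log2 change above 1.7 gave 3, and leaving out each library gave 3 to 5. DESeq2 size factors and a minimum of 10 counts in every library each lost Jam2 (edgeR adjusted p = 0.0104 and 0.0110). Over all genes, 1733 of 14185 were called higher in neurites in the main fit, 350 with total counts and 1675 with DESeq2 size factors. Under DESeq2 it was 2042 of 14180, and with the minimum of 10 counts 1611 of 9597. For the difference between the responses, the block called 3 of the genes and the other settings, leave-one-out included (0 to 0), called 0, and since this contrast chose the genes nothing is read from these counts. The block changed no other call of the 9 genes in the averaged contrasts, and no log2 value of an averaged contrast reversed under any setting. The calls of Fam107a and Sox2 after MG132 and of Nes, Fabp7 and Fam107a in neurites remained in 12 of 12 fits without 1 library. Where 1 library was left out, its group was fitted on 2 libraries. Over all genes, the standard error had a median of 0.25 for the averaged contrasts and 0.51 for the difference of responses, which limits what the latter can show. Counts over the lists moved by more than 1.5 times in these cases. After MG132, total counts left 1 Notch gene and 2 BMP and ID genes higher, the minimum of 10 counts left 1 Notch gene higher and 3 lower, and 8 BMP and ID genes were lower under the block or an adjusted p under 0.05. A log2 change beyond 1.7 left 5 of the 18 lower progenitor genes, 3 lower Notch genes and 3 lower relatives. In neurites, the block called 3 progenitor genes, 2 BMP and ID genes and 1 relative lower where 0 were before, and total counts called 10, 5 and 6. The cause was not tested, except that total counts move the median of all genes.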
